A study of Mus musculus with 6 samples.

Results

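The perilipins and a set of partner proteins of the lipid droplet were described in RNA of mouse aortae. The genes were taken by symbol: Plin1, Plin2, Plin3, Plin4, Plin5, Cidec, G0s2, Abhd5 and Bscl2. All 9 were found among the 55453 genes of the deposited count table, and all 9 passed the filter on low counts, which left 18192 genes for testing. The homozygous group (n = 2) was homozygous for floxed Srf, which encodes the transcription factor SRF (serum response factor), and the control group (n = 3) was heterozygous for it. Every mouse of both groups also carried Itga8-CreERT2, in which an integrin gene active in smooth muscle drives a Cre that tamoxifen switches on, and every mouse received 5 daily intraperitoneal doses of 33 mg/kg tamoxifen. Aortae were collected 10 days after the last dose. The controls therefore also lacked 1 copy of Srf in recombined cells, and cells in which the driver is silent kept Srf in both groups. Adventitia and endothelium were stripped and each aorta was frozen on its own, per the labels' protocols. Homozygous replicate 1 is in the labels but has no column in the deposited count table, so it was not analysed here. Per the series' design text, the authors dropped 1 homozygous sample because it was an outlier. The sources used here give no strain, sex or age.

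A lipid droplet is a store of neutral lipid, mainly triglyceride, enclosed by a single layer of phospholipid. Perilipins coat that surface and decide how easily lipases reach the lipid. In fat cells PLIN1 holds ABHD5, the coactivator of adipose triglyceride lipase (ATGL, encoded by Pnpla2), until protein kinase A phosphorylates the coat. G0S2 inhibits the same lipase, CIDEC moves lipid between touching droplets so that they grow, and BSCL2 (seipin) shapes new droplets at the endoplasmic reticulum. Fat surrounds the aorta, that of the thoracic aorta in mice is largely brown, and droplets also form in macrophages and muscle.

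Libraries held 27685188 and 31873243 counts in the homozygous group and 26177821 to 34311855 counts in the heterozygous group, and together the 9 genes took 0.165% to 0.184% of the counts in homozygous libraries and 0.146% to 0.172% in heterozygous libraries. Levels are CPM, a gene's counts scaled to library size with TMM factors. Srf stood at 45.0 and 38.6 CPM in homozygous libraries, against 56.1, 64.4 and 68.3 CPM in heterozygous libraries, a log2 fold change of -0.59 (SE 0.122, edgeR adjusted p = 0.115, DESeq2 adjusted p = 0.00371). Smooth muscle markers were present throughout: Myh11, a contractile myosin, stood at 5484 and 5165 CPM in homozygous libraries and between 8695 and 9439 CPM in heterozygous libraries. Markers of the stripped layers were not at 0, with Pecam1, an endothelial adhesion molecule, at 339.6 and 115 CPM in homozygous libraries and 259.8 to 312 CPM in heterozygous libraries.

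Promoter stretches of 4 genes are shown because they carry the main contrast of this gene set. Plin1 and Cidec, coat and fusion protein of fat cells, kept overlapping proportions in the 2 groups. Plin4 and Plin5 lie 1797 bases apart on chromosome 17, and Plin5 had the highest and Plin4 the lowest log2 fold change of the 9 genes. Each stretch is the 180 bases before a RefSeq transcription start on GRCm38.p6, read on the minus strand, on which all 4 genes lie. The gene coordinates given below are GENCODE's, and the stretches of Plin1, Plin4 and Plin5 lie partly inside them. Capitals mark matches on either strand to 3 short promoter motifs, which are spelled out after the sequences.
Plin1 chr7:79732777-79732956: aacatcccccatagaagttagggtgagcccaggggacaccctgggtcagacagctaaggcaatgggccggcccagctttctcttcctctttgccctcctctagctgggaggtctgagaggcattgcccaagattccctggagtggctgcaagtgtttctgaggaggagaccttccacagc
Cidec chr6:113435761-113435940: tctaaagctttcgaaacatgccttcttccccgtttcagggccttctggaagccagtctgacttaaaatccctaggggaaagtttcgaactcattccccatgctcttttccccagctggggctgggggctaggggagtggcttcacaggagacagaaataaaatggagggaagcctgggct
Plin4 chr17:56109783-56109962: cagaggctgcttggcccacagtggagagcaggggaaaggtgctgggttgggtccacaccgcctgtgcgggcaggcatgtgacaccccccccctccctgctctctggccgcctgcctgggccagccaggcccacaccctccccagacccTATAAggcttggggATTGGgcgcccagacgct
Plin5 chr17:56117549-56117728: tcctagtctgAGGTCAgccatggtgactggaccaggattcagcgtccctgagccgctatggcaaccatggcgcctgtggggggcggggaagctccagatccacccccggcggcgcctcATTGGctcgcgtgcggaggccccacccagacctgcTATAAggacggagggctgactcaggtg

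Plin4 and Plin5 both hold TATAA close to the start, with its first base 32 and 27 bases before it (positions -32 and -27). Both also hold CCAAT on the opposite strand (ATTGG as printed), at -18 to -14 in Plin4 and at -62 to -58 in Plin5. Plin5 has AGGTCA, the half-site of nuclear receptors such as the PPARs, at -170 to -165. Over the 250 bases before a start, TATAA occurs in 22.8%, CCAAT in 33.8% and AGGTCA in 14.0% of 32851 RefSeq promoter windows, on either strand. All 9 genes had at least 1 window, 13 in all, of which 3 held TATAA, 5 CCAAT and 4 AGGTCA. The CArG box, the site bound by serum response factor, was searched in its strict form and had no match in these 13 windows (1.47% of all windows). The E-box CACGTG (6.02% of all windows) and the DR1 element, a direct repeat of AGGTCA with 1 base between (0.0335%), had none either. Each DR1 match also counts as an AGGTCA match, and the CArG box can hold a TATAA match. These matches describe letters in a window and are not evidence of binding.

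Of the 5 perilipins, Plin1, Plin2 and Plin5 stood higher in every homozygous library than in any heterozygous library, while Plin3 and Plin4 overlapped, and none passed edgeR's adjusted p. Plin1, the perilipin of fat cells (9 exons, GRCm38 chromosome 7, 79720218 to 79732903), was measured at 250.3 and 247 CPM in homozygous libraries, against 148, 187 and 137 CPM in heterozygous libraries. The groups did not overlap, and heterozygous replicate 2 was the closest to the homozygous libraries. The mean was 249 ± 2.29 CPM (SD, n = 2) in homozygous and 157 ± 26.7 CPM (SD, n = 3) in heterozygous libraries, a log2 fold change of 0.66 (SE 0.142, 95% interval 0.32 to 1.00). The edgeR adjusted p was 0.116 and that of DESeq2 0.00325.

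Plin2, the perilipin found on droplets of nearly all cells (8 exons, chromosome 4, 86648386 to 86670060), stood at 146 and 156 CPM in homozygous libraries, against 79.5, 107 and 64.9 CPM in heterozygous libraries. Every homozygous library was above every heterozygous one, and the order of the heterozygous libraries was the same as for Plin1. Its log2 fold change was 0.85 (SE 0.193, 95% interval 0.40 to 1.31; edgeR adjusted p = 0.127, DESeq2 adjusted p = 0.00325).

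Plin5, which tethers droplets to mitochondria in oxidative tissues (8 exons, chromosome 17, 56111601 to 56117596), stood at 34.9 and 33.0 CPM in homozygous libraries, against 14.4, 22.1 and 15.7 CPM in heterozygous libraries. It had the largest log2 fold change of the 9 genes, 0.96 (SE 0.182, 95% interval 0.53 to 1.39), and 2.69% of all genes tested had a higher one. The groups were apart by more than the range within either (edgeR adjusted p = 0.107, DESeq2 adjusted p = 0.000622).

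Plin3, a cytosolic perilipin that moves onto new droplets (8 exons, chromosome 17, 56277476 to 56292873), stood at 63.0 and 61.7 CPM in homozygous libraries, against 61.7, 61.8 and 56.5 CPM in heterozygous libraries. The groups overlapped, and the log2 fold change was 0.06 (SE 0.0882, edgeR adjusted p = 0.805). Its 95% interval ran from -0.15 to 0.27.

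Plin4, which coats small new droplets in fat and muscle (9 exons, chromosome 17, 56100591 to 56109803), was the member with the highest counts. It stood at 924 and 746 CPM in homozygous libraries, against 909.5, 836 and 1279 CPM in heterozygous libraries. The groups overlapped, and heterozygous replicate 3, lowest of all libraries for Plin1, Plin2 and Plin3, was the highest for Plin4. The log2 fold change was -0.27 (SE 0.202, 95% interval -0.75 to 0.21; edgeR adjusted p = 0.572), and leaving out heterozygous replicate 3 gave -0.05. Leaving out a homozygous library gave -0.12 (replicate 3) or -0.44 (replicate 2).

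**Figure D1:**
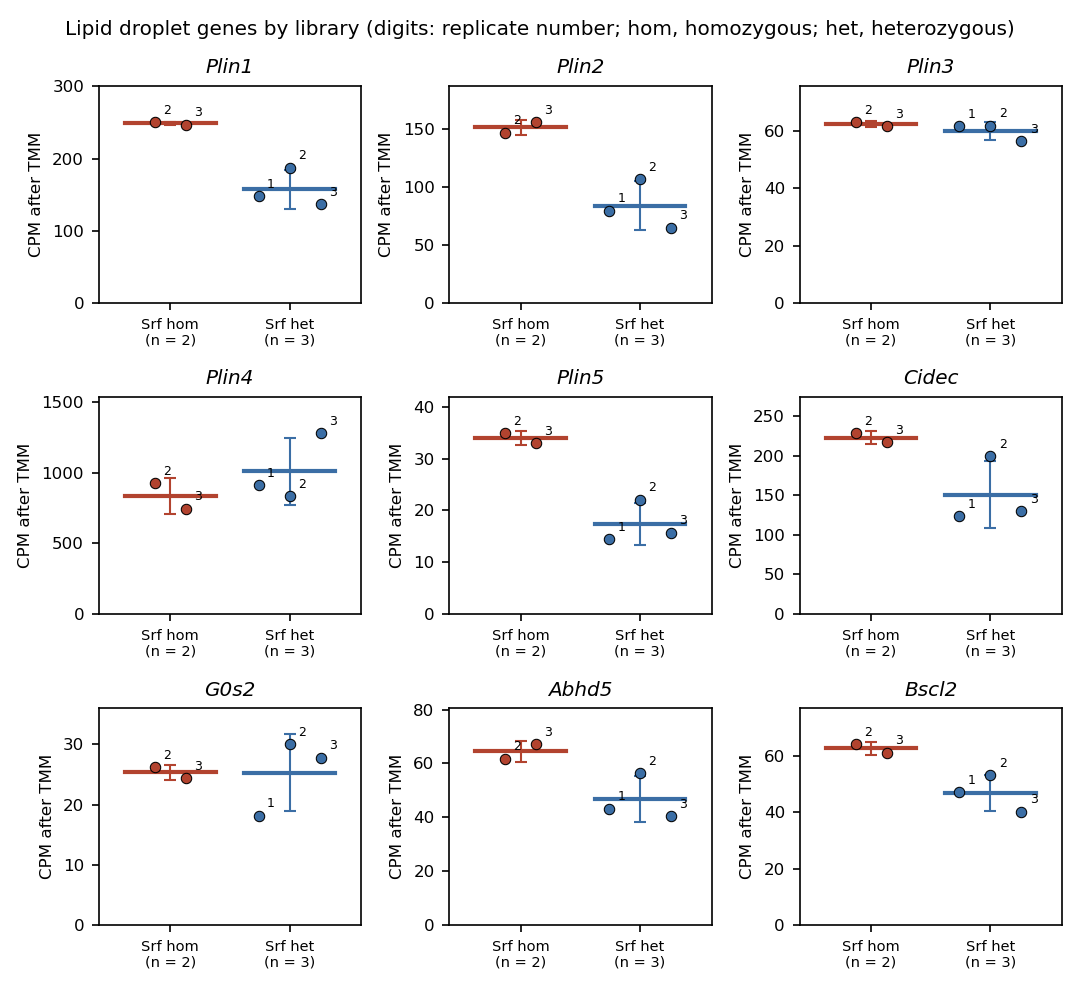
CPM after TMM for each gene and library, with the homozygous libraries in red on the left and the heterozygous libraries in blue on the right; horizontal lines are group means and bars the SD. Homozygous points lie above all heterozygous points for Plin1, Plin2, Plin5, Cidec, Abhd5 and Bscl2. The groups overlap for Plin3, Plin4 and G0s2, and heterozygous replicate 3 of Plin4 reaches 1279 CPM.

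Among the partners, Cidec, which lets droplets fuse and grow (6 exons, chromosome 6, 113424634 to 113435760), stood at 229 and 217 CPM in homozygous libraries, against 123, 199 and 130.1 CPM in heterozygous libraries. Both homozygous libraries stood above the others, and heterozygous replicate 2 was closest to them. The log2 fold change was 0.56 (SE 0.206, 95% interval 0.08 to 1.05; edgeR adjusted p = 0.258, DESeq2 adjusted p = 0.127).

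The regulators of ATGL were Abhd5 and G0s2. Abhd5, the coactivator (7 exons, chromosome 9, 122351608 to 122381524), stood at 61.8 and 67.2 CPM in homozygous libraries, against 43.2, 56.4 and 40.5 CPM in heterozygous libraries. The groups did not overlap, and the log2 fold change was 0.47 (SE 0.150, 95% interval 0.11 to 0.82; edgeR adjusted p = 0.213, DESeq2 adjusted p = 0.114). G0s2, the inhibitor (2 exons, chromosome 1, 193272161 to 193273217), stood at 26.3 and 24.4 CPM in homozygous libraries, against 18.1, 30.04 and 27.8 CPM in heterozygous libraries. The homozygous values lay inside the heterozygous range, with a log2 fold change of 0.00 (SE 0.207, 95% interval -0.49 to 0.49; edgeR adjusted p = 0.999). The sign of this value turned when heterozygous replicate 1, the lowest library for G0s2, was left out (-0.19), and without homozygous replicate 2 (-0.05).

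Bscl2, seipin (12 exons, chromosome 19, 8837467 to 8848683), stood at 64.2 and 61.2 CPM in homozygous libraries, against 47.2, 53.2 and 40.2 CPM in heterozygous libraries. The groups did not overlap, and the log2 fold change was 0.42 (SE 0.127, 95% interval 0.12 to 0.72; edgeR adjusted p = 0.194, DESeq2 adjusted p = 0.0986).

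Abhd5 shares 16.0% of its exon bases with an antisense gene, A730085K08Rik, and Bscl2 shares 6.75% with Gng3 on the opposite strand. Whether the counting used the strand is not given in the sources used here. A730085K08Rik had 2 counts in homozygous replicate 2 and 0 in the other libraries, and Gng3 had 2 to 4 counts per library. AC129217.1, which shares 4.05% of the Bscl2 exon bases on the same strand, had 0 counts in every library. Whether the shared bases changed the counts of Abhd5 or Bscl2 was not tested. Plin4 shares 17 exon bases with Hdgfl2. None of the 100-base words of the Plin1, Plin3, Plin4, Plin5, Cidec and G0s2 transcripts occurs in a transcript of another gene.

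By edgeR's quasi-likelihood test, 0 of the 9 genes passed an adjusted p under 0.05 in either direction, as did 0% of all genes tested (0 of 18192). At an unadjusted p under 0.05, 6 of 9 were higher in homozygous libraries (Plin1, Plin2, Plin5, Cidec, Abhd5 and Bscl2), against 9.04% of all genes, and 0 of 9 were lower, against 6.75%. In the same 6 genes every homozygous library stood above every heterozygous library, which held for 17.4% of all genes, and the reverse held for 0 of 9, against 18.2%. DESeq2 called 3 of 9 higher (Plin1, Plin2 and Plin5), against 3.35% of the genes to which it gave an adjusted p, and 0 lower, against 2.62%. edgeR without a low-count filter called 6 of 9 higher, against 3.23%, and 0 lower, against 1.42%. The median log2 fold change of the 9 genes was 0.47, beside -0.02 over all genes tested.

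Without heterozygous replicate 2, Plin1, Plin2, Plin5 and Cidec passed with an edgeR adjusted p of 0.0466 each. Their log2 fold changes were 0.82, 1.08, 1.19 and 0.83, while Abhd5 (edgeR adjusted p = 0.0572) and Bscl2 (0.111) did not pass. Over all genes, the same fit called 139 higher and 9 lower. Leaving out heterozygous replicate 1 or 3 instead called 0 of the 9 genes. Over the 15 alternatives, the adjusted p of Plin5 ranged from 7.03e-05 to 0.542 and its log2 fold change from 0.84 to 1.19. The corresponding log2 fold changes ran from 0.59 to 0.82 for Plin1 and from 0.72 to 1.08 for Plin2. They ran from 0.44 to 0.83 for Cidec, from 0.39 to 0.64 for Abhd5 and from 0.34 to 0.54 for Bscl2, and none of these 6 genes changed sign.

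**Figure D2:**
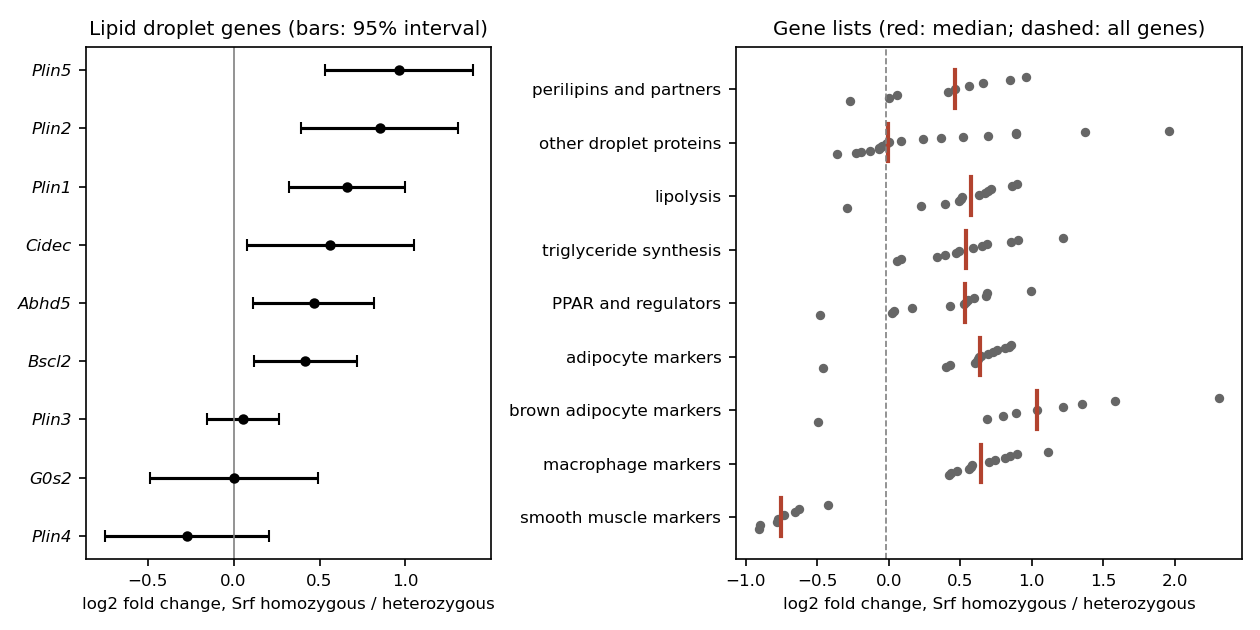
Left, log2 fold change (homozygous over heterozygous) of each gene with its 95% interval from the edgeR fit; right, the log2 fold changes of the tested genes of each list, with the list's median in red and the median of all genes dashed. The intervals of Plin5, Plin2, Plin1, Cidec, Abhd5 and Bscl2 lie above 0, while the other droplet proteins scatter around a median of -0.01.

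Levels of different genes were compared per length of their annotated exons (RPKM). In homozygous libraries the order of the mean RPKM was Plin4 (145), Cidec (120.1), Plin1 (53.5), Plin2 (43.0), G0s2 (29.1), Plin3 (16.5), Plin5 (16.3), Abhd5 (10.8) and Bscl2 (10.6). Plin3 with Plin5, and Abhd5 with Bscl2, overlapped between libraries there, and the other neighbours did not. In heterozygous libraries it was Plin4 (175), Cidec (81.3), Plin1 (33.9), G0s2 (29.1), Plin2 (23.8), Plin3 (15.8), Plin5 (8.34), Bscl2 (7.95) and Abhd5 (7.84). Plin1 with G0s2, G0s2 with Plin2, Plin5 with Bscl2, and Bscl2 with Abhd5 overlapped between these libraries. Plin2 thus stood above G0s2 in both homozygous libraries, while the same pair overlapped in the heterozygous group, and Plin5 was level with Plin3 in homozygous libraries but below it in every heterozygous library. Lengths of the longest transcript instead gave Plin4 and Cidec overlapping levels in homozygous libraries (161 and 129.6 RPKM against 133 and 126 RPKM). They also placed Abhd5 (20.4 RPKM) and Bscl2 (17.9 RPKM) above Plin3 and Plin5 (17.1 RPKM each) in the homozygous means. In the heterozygous means they placed Plin2 (44.3 RPKM) above G0s2 (29.1 RPKM), with overlapping libraries, and Abhd5 (14.8 RPKM) and Bscl2 (13.4 RPKM) above Plin5 (8.76 RPKM).

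Within the perilipin family, Plin4 held 55.4% and 49.9% of the summed RPKM in homozygous libraries, against 67.0%, 59.7% and 75.9% in heterozygous libraries. Plin1 held 18.6% and 20.5% in homozygous libraries, against 13.5%, 16.6% and 10.1% in heterozygous libraries. Plin2 held 14.4% and 17.1% in homozygous libraries, against 9.62%, 12.5% and 6.34% in heterozygous libraries. The groups did not overlap in any of these shares. Plin5 held 5.79% and 6.11% in homozygous libraries, against 2.94%, 4.37% and 2.57% in heterozygous libraries, while the shares of Plin3 overlapped (5.76% and 6.30% in homozygous, 5.11% to 6.93% in heterozygous libraries). Shares sum to a whole, so a lower share of Plin4 goes with higher shares of the others.

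**Figure D3:**
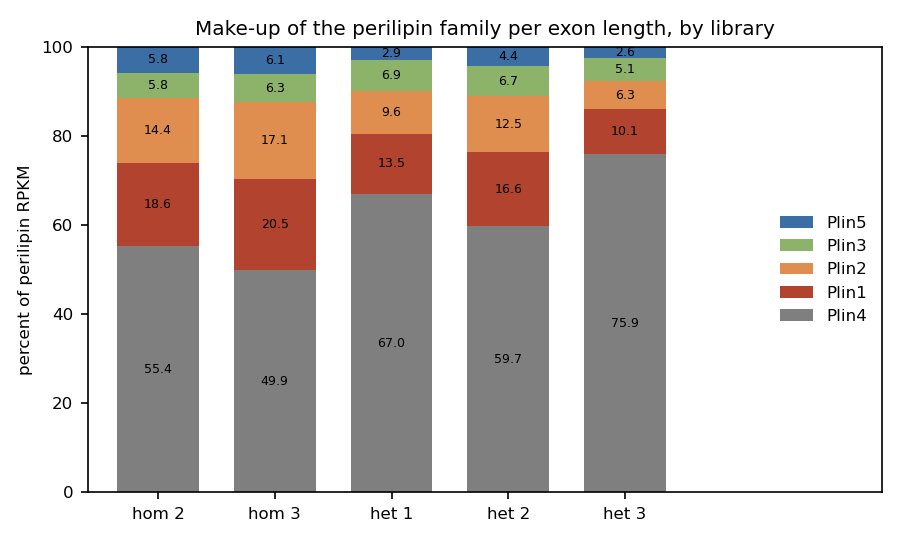
Share of each perilipin in the summed RPKM of the 5 perilipins, per library, with homozygous libraries (hom) on the left and heterozygous libraries (het) on the right. The grey Plin4 segment ends at 55.4% and 49.9% in homozygous libraries and at 59.7% to 75.9% in heterozygous libraries.

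Ratios of CPM within a library were used to set members against each other and against a marker, 11 ratios in all. Their size depends on gene length, so only the libraries are compared. With 2 against 3 libraries the smallest two-sided exact permutation p is 0.2, so none could pass, and all adjusted values were 0.367 or more. The ratio of Cidec to Plin1 was 0.913 and 0.879 in homozygous libraries, against 0.833, 1.06 and 0.952 in heterozygous libraries (exact permutation p = 0.8). These 2 genes of fat cells thus kept overlapping proportions. Plin5 over Plin1 was 0.139 and 0.133 in homozygous libraries, against 0.0974, 0.118 and 0.115 in heterozygous libraries, a mean log2 difference of 0.31 (exact permutation p = 0.2). Plin2 over Plin1 was 0.585 and 0.63 in homozygous libraries, against 0.537, 0.569 and 0.475 in heterozygous libraries (mean log2 difference 0.21, or 0.14 without heterozygous replicate 3, exact permutation p = 0.2). Both ratios were higher in each homozygous library than in any heterozygous library. Plin4 over Plin1 was 3.69 and 3.02 in homozygous libraries, against 6.14, 4.46 and 9.36 in heterozygous libraries (mean log2 difference -0.93, exact permutation p = 0.2).

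The 2 regulators of ATGL were set against Pnpla2 itself, which stood at 404 and 351 CPM in homozygous libraries and at 203, 303 and 223 CPM in heterozygous libraries. G0s2 over Pnpla2 was 0.0650 and 0.0695 in homozygous libraries, against 0.0892, 0.0991 and 0.125 in heterozygous libraries. The inhibitor was thus lower relative to its target in each homozygous library, by a mean log2 difference of -0.62 (exact permutation p = 0.2), and this difference ran from -0.73 to -0.48 with each library left out. Abhd5 over Pnpla2 was 0.153 and 0.191 in homozygous libraries, against 0.212, 0.186 and 0.182 in heterozygous libraries, with overlapping groups (mean log2 difference -0.17, exact permutation p = 0.6). Leaving out homozygous replicate 2 brought that difference to -0.012 and leaving out homozygous replicate 3 to -0.33, while it was -0.10 when heterozygous replicate 1 was left out.

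Adipoq, the fat cell hormone adiponectin, stood at 181 and 182 CPM in homozygous libraries and at 103, 159 and 95.8 CPM in heterozygous libraries. Plin1 over Adipoq was 1.38 and 1.36 in homozygous libraries, against 1.43, 1.18 and 1.43 in heterozygous libraries (mean log2 difference 0.03, exact permutation p = 1). Cidec over Adipoq was 1.26 and 1.20 in homozygous libraries, against 1.19, 1.25 and 1.36 in heterozygous libraries (mean log2 difference -0.04, exact permutation p = 1). Relative to this marker, both genes overlapped between the groups. Plin4 over Adipoq was 5.11 and 4.11 in homozygous libraries, against 8.81, 5.25 and 13.4 in heterozygous libraries (mean log2 difference -0.89, or -0.57 without heterozygous replicate 3, exact permutation p = 0.2).

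Plin5 was set against Ucp1, the uncoupling protein of brown fat, which stood at 582 and 569 CPM in homozygous libraries and at 152, 337 and 87.5 CPM in heterozygous libraries. Plin5 over Ucp1 was 0.0600 and 0.0579 in homozygous libraries, against 0.0950, 0.0655 and 0.179 in heterozygous libraries (mean log2 difference -0.82, or -0.42 without heterozygous replicate 3, exact permutation p = 0.2) and was lower in each homozygous library. Plin2 was set against Cd68, a lysosomal marker of macrophages, at 6.50 and 7.49 CPM in homozygous and 4.80, 3.05 and 4.73 CPM in heterozygous libraries. Plin2 over Cd68 was 22.5 and 20.8 in homozygous libraries, inside the range of 13.7 to 34.9 of the heterozygous libraries (exact permutation p = 1).

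**Figure D4:**
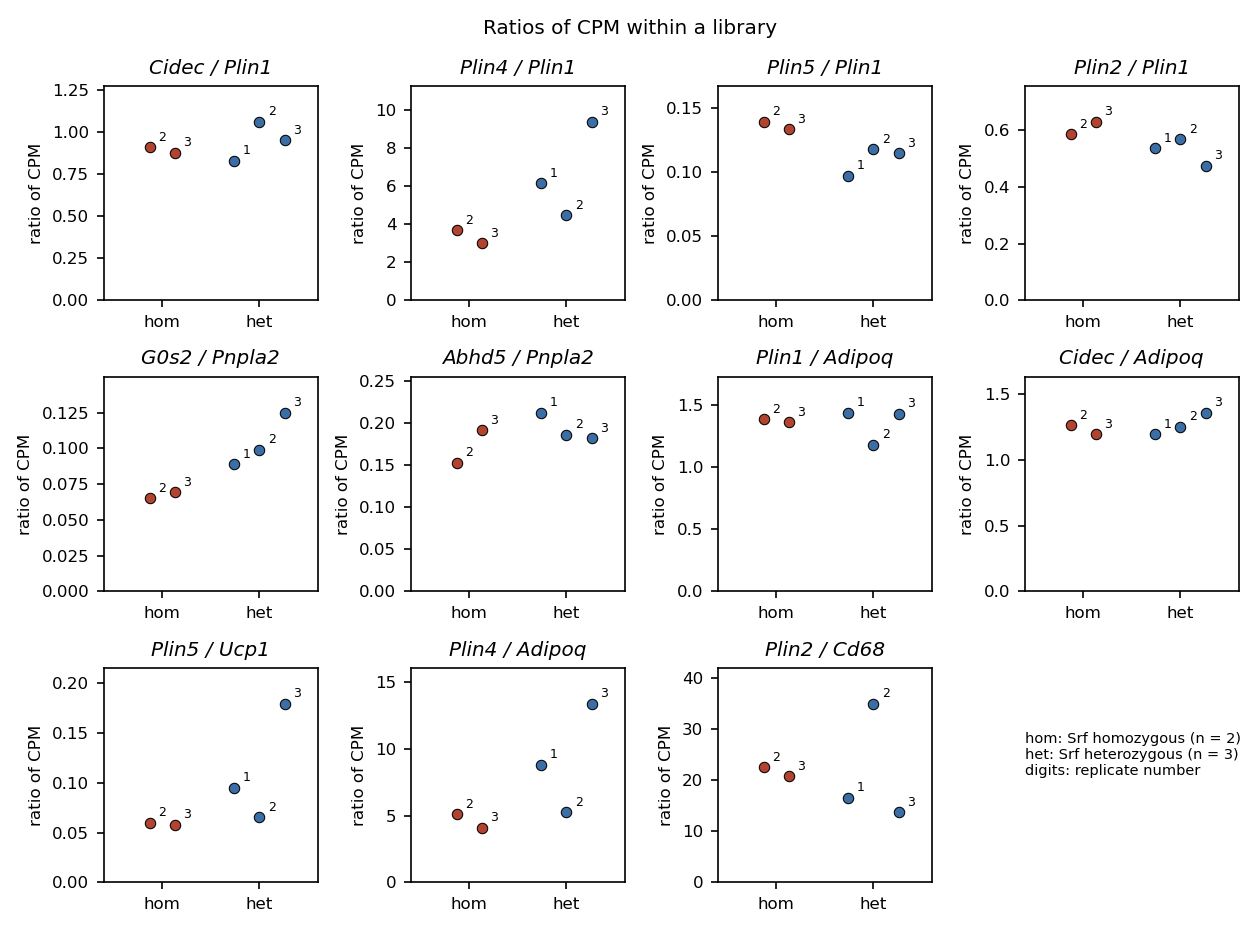
Ratio of CPM within each library for 11 pairs of genes, with homozygous libraries (hom, red) left of heterozygous libraries (het, blue) and axes starting at 0. Homozygous points lie below all heterozygous points for Plin4 / Plin1, G0s2 / Pnpla2, Plin5 / Ucp1 and Plin4 / Adipoq, and above them for Plin5 / Plin1 and Plin2 / Plin1, and the groups overlap in the other 5 panels.

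Marker lists of fat cells, macrophages and skeletal muscle had higher sums in every homozygous library than in any heterozygous library, smooth muscle markers had lower ones, and the sums of the other lists overlapped. Of 14 adipocyte markers, 13 had a positive log2 fold change, 11 were higher and 1 lower at an unadjusted p under 0.05, and the summed level was 5416 to 6098 CPM in homozygous libraries and 3211 to 4755 CPM in heterozygous libraries. Fabp4, a fatty acid carrier, stood at 1126 and 1238 CPM in homozygous libraries, against 598, 843 and 541 CPM in heterozygous libraries. The lower marker was Aoc3, an amine oxidase that smooth muscle also makes, with a log2 fold change of -0.46 (SE 0.103, edgeR adjusted p = 0.124, DESeq2 adjusted p = 0.00273). Of 9 brown adipocyte markers, 8 were higher and 1 (Prdm16, a transcriptional regulator) lower at an unadjusted p under 0.05. Their sum was 1269 to 1326.5 CPM in homozygous libraries and 535 to 995 CPM in heterozygous libraries. No marker of these 2 lists was at 0 in any library. Over all genes tested, 9.04% were higher and 6.75% lower at an unadjusted p under 0.05.

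Of 12 macrophage markers, 10 were higher and 0 lower at an unadjusted p under 0.05, with sums of 480.3 to 629.7 CPM in homozygous libraries and 296 to 415 CPM in heterozygous libraries, and none at 0. All 13 skeletal muscle markers had positive log2 fold changes, 7 of them with an unadjusted p under 0.05. Their sums were 1067 and 2882 CPM in homozygous libraries, against 730.02, 344 and 11.1 CPM in heterozygous libraries, and Myh4 and Pvalb were at 0 in at least 1 library. Myh1, a fast myosin, stood at 296 and 496 CPM in homozygous libraries, against 119, 64.5 and 0.318 CPM in heterozygous libraries. Of 8 cardiomyocyte markers 1, of 8 fibroblast markers 2 and of 8 endothelial markers 0 were higher at an unadjusted p under 0.05, and none was lower. Their sums were 448 to 456 CPM in homozygous and 365 to 542 CPM in heterozygous libraries for cardiomyocytes (Myl2 at 0 in a library). Nppa, also listed, did not pass the filter on low counts and is not in that sum. Ryr2, a calcium release channel with a log2 fold change of 0.01, made up most of that sum. All 8 cardiomyocyte markers had positive log2 fold changes (median 0.96), beside 8587 of all 18192 genes tested. Some had few counts, with 4 to 30 per library for Mybpc3 and 9 to 80 for Myl7. In 2 of the 8, every homozygous library stood above every heterozygous library, against 17.4% of all genes. The sums were 1951 to 2187 CPM in homozygous and 1410.2 to 2019 CPM in heterozygous libraries for fibroblasts, and 419 and 1160.5 CPM in homozygous and 769 to 1016 CPM in heterozygous libraries for endothelium. All 8 smooth muscle markers were lower at an unadjusted p under 0.05 and by DESeq2, with sums of 13640 to 14045 CPM in homozygous libraries and 23146 to 24297 CPM in heterozygous libraries. The part of these cell types in the values of the lipid droplet genes was not tested, and in bulk RNA more cells of a type and more RNA per cell cannot be told apart.

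Among the heterozygous libraries, replicate 2 had the highest summed adipocyte markers of its group (4755 CPM, against 3237 and 3211 CPM in replicates 1 and 3) and the highest Plin1, Plin2, Plin5, Cidec, Abhd5 and Bscl2. Relative to the mean of the 5 libraries on the log2 scale, replicate 2 stood at -0.0038 for Plin1 and 0.20 for Cidec, and replicates 1 and 3 at -0.34 and -0.46 for Plin1 and at -0.50 and -0.42 for Cidec. Plin4 did not follow that order, with replicate 3 at 0.47, replicate 1 at -0.02 and replicate 2 at -0.14. G0s2 was also highest in replicate 2 (0.27), with replicate 3 at 0.15 and replicate 1 at -0.46. The summed skeletal muscle markers ranked the heterozygous libraries otherwise, with replicate 1 highest, and the summed macrophage markers were lowest in replicate 2. Sums of brown adipocyte (995 CPM), endothelial (1016 CPM) and smooth muscle markers (24297 CPM) were also highest of the group in replicate 2. The fibroblast sum was highest in replicate 1 and the cardiomyocyte sum in replicate 3.

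**Figure D5:**
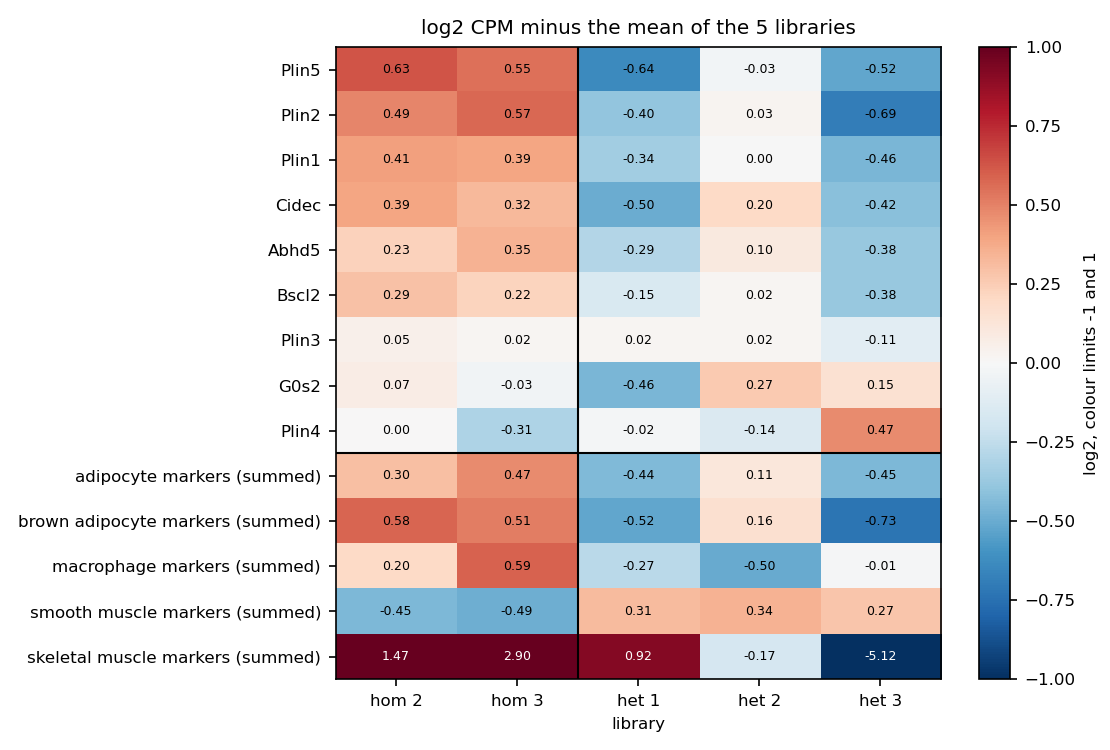
log2 CPM of each gene (rows above the line) and log2 summed CPM of 5 marker lists (rows below it), each minus its mean over the 5 libraries, with homozygous libraries (hom) left of heterozygous libraries (het). Plin5, Plin2, Plin1, Cidec, Abhd5 and Bscl2 are positive in both homozygous libraries and negative in heterozygous replicates 1 and 3. The adipocyte, brown adipocyte and macrophage sums have these signs too, with the macrophage sum at -0.01 in heterozygous replicate 3. Plin4 is highest in heterozygous replicate 3 (0.47).

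Other genes of droplet biology were read from lists. Beside them, 9.04% of all genes tested were higher and 6.75% lower at an unadjusted p under 0.05 by edgeR. DESeq2 called 3.35% higher and 2.62% lower of the genes to which it gave an adjusted p. Among 20 tested proteins of the droplet surface or its assembly, 7 were higher and 2 lower at an unadjusted p under 0.05, 0 passed edgeR's adjustment, and DESeq2 called 4 higher and 0 lower. The median log2 fold change was -0.01. The genes called by DESeq2 included Aifm2, a ubiquinone reductase found on droplets, at 95.5 and 84.1 CPM in homozygous libraries, against 54.3, 61.4 and 50.4 CPM in heterozygous libraries (log2 fold change 0.70, SE 0.114, DESeq2 adjusted p = 0.000164). Pnpla3, a lipase relative on the droplet, gave 0.89 (SE 0.187), Cidea, the brown fat relative of Cidec, 0.89 (SE 0.263) and Fitm2, which helps droplets bud, 0.52 (SE 0.128). Cideb, another relative of Cidec, gave 1.37 (SE 0.377) from 16 and 17 counts in homozygous and 5 to 8 counts in heterozygous libraries, and DESeq2 gave it no adjusted p. The 2 lower genes were Tmem159, at -0.36 (SE 0.114), and Spg20, at -0.23 (SE 0.0824). Rab18, a small GTPase of the droplet, gave -0.06 (SE 0.0896) with overlapping groups. Vps13c, a lipid transfer protein with the highest CPM of the list averaged over all 5 libraries, gave 0.24 (SE 0.0918, edgeR adjusted p = 0.275).

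Lipolysis genes had a median log2 fold change of 0.57 over 12 tested, with 10 higher and 1 lower at an unadjusted p under 0.05, 0 by edgeR's adjusted p and 6 higher by DESeq2. Lipe, hormone-sensitive lipase, which PLIN1 admits to the droplet after phosphorylation, stood at 306 and 313 CPM in homozygous libraries, against 176, 218 and 180.5 CPM in heterozygous libraries (log2 fold change 0.69, SE 0.118). Adrb3, the adrenergic receptor that starts lipolysis in fat cells, gave 0.86 (SE 0.163) and Prkar2b, a regulatory subunit of protein kinase A, 0.89 (SE 0.174). Aqp7, a glycerol channel, gave 0.72 (SE 0.155). Pnpla2 gave 0.63 (SE 0.177, edgeR adjusted p = 0.171, DESeq2 adjusted p = 0.0263). The 1 lower gene was Prkacb, a catalytic subunit of protein kinase A, at -0.29 (SE 0.101).

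Triglyceride synthesis genes had a median of 0.54 over 12 tested, all with positive log2 fold changes, 10 of them at an unadjusted p under 0.05, with 0 called by edgeR's adjusted p and 5 called higher by DESeq2. Dgat2, which makes triglyceride from diacylglycerol, stood at 440.5 and 474 CPM in homozygous libraries, against 237, 308 and 211 CPM in heterozygous libraries (log2 fold change 0.86, SE 0.163). Dgat1, which catalyses the same step, gave 0.69 (SE 0.117), Lpin1, a phosphatidate phosphatase, 0.59 (SE 0.0947) and Gpat4, a glycerol-3-phosphate acyltransferase, 0.50 (SE 0.102). PPARs and other regulators of lipid storage had a median of 0.54 over 12 tested, with 7 higher and 0 lower at an unadjusted p under 0.05 and 3 higher by DESeq2. Ppara, a receptor for fatty acids, gave 1.00 (SE 0.253), with 56.1 and 32.9 CPM in homozygous libraries, against 17.8, 27.4 and 21.7 CPM in heterozygous libraries. Cebpa, a fat cell transcription factor, gave 0.69 (SE 0.197), Ppargc1b, a coactivator, 0.68 (SE 0.175) and Mlxipl, a sugar-sensing factor, 0.55 (SE 0.165), and Srebf1, with the highest mean CPM of the list, gave 0.17 (SE 0.172) with overlapping groups.

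Genes with the most similar pattern were found by the root mean square difference of centred log2 CPM over the 5 libraries, among 15065 other genes with a mean of at least 1 CPM. For Plin1 they were Echs1 (0.021), Taldo1 (0.022) and Sdha (0.026), and for Plin2 Dbi (0.031), Prkar2b (0.043) and Tmed5 (0.048). Plin5 was nearest to Shmt1 (0.058), Gpd2 (0.060) and Pank1 (0.061), and Cidec to Gk (0.046), Gm37390 (0.046) and Ybx2 (0.052). Abhd5 was nearest to Gcsh (0.020) and Bscl2 to B430010I23Rik (0.031). Plin4 had other neighbours, Cenpt (0.027), Snhg15 (0.033) and Gm38125 (0.037), G0s2 was nearest to Mthfd2 (0.043), and Plin3 to Ilrun (0.007). Cidec was 268th in likeness to Plin1 (0.119) and Abhd5 204th (0.105), while Plin4 lay at 0.575 from Plin1. With 5 libraries many genes share a pattern, and these distances are a description.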

How the data were processed

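Aortic poly(A) RNA (stranded kit, per the labels) was sequenced. The authors deposited raw whole-number counts per gene. The submitters' processing notes name GRCm38, Subread 1.6.4 (featureCounts), STAR 2.7.0f and fastp 0.20.0; the sources used here give neither annotation release nor strand setting. Columns were matched to mice by their descriptions. Here edgeR 4.0.16 (R 4.3.3) was used with filterByExpr, TMM and the quasi-likelihood F test on genotype alone, with Benjamini-Hochberg adjustment over all 18192 genes called at 0.05 (3 residual degrees of freedom, biological coefficient of variation 15.8%). SE is the log2 fold change over the root of F. The 5 columns are aortae frozen one by one, and their spread is what the p-values rest on. No label names a batch, and no libraries of a group agreed within sampling noise. Gene models are GENCODE mouse release 21 (GRCm38); RPKM divides CPM by the union of exons. Promoters are RefSeq's. Motifs and ratios used Python with scipy 1.17.1. Alternatives used DESeq2 1.42.0 and limma 3.58.1. On simulated counts with known changes, both edgeR and DESeq2 made more false calls than the threshold allows, and DESeq2 made more than edgeR.

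The members, lists, ratios and tests were chosen with earlier results of these data known. The named genes are the 9 members, Srf, up to 4 genes of smallest p and the most abundant gene of each list (in part), the partners in the ratios and the nearest genes. Cidea, Rab18, Tmem159, Spg20, Prkacb, Fabp4 and Pecam1 were picked from the lists after their values were seen, and not every marker gene of the rule is printed.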

Additional observations from a re-analysis of the deposited data

How the results depend on the processing

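The median log2 fold change of the 9 genes, 0.47, stayed between 0.39 and 0.64 under all 15 alternatives, and its direction did not change. Over all genes edgeR called 0 higher and 0 lower; DESeq2 called 524 and 411, edgeR without a low-count filter 982 and 432, limma-voom 0 and 1, and the replicate block 3 and 2. Of the 9 genes, DESeq2 called 3 higher and edgeR without that filter 6, and the cause was not tested. With each library left out in turn, calls over all genes ran from 0 to 139 higher and from 0 to 9 lower, and among the 9 genes from 0 to 4 higher, with the upper ends without heterozygous replicate 2. Where 1 homozygous library remained, it is assumed to vary like the others. G0s2 turned to -0.19 with the replicate block and -0.19 with crossed pairs, and ran from -0.19 to 0.16 with libraries left out. Block and crossed pairs rest on replicates 2 and 3 only, because heterozygous replicate 1 has no homozygous partner in the count table. Leaving out heterozygous replicate 1 without any pairing also gave -0.19, so the turn cannot be credited to blocking or pairing. No other gene of the 9 changed sign. Differences in log2 ratio that changed sign with libraries left out ran from -0.17 to 0.0090 for Cidec over Plin1, from -0.060 to 0.082 for Plin1 over Adipoq, from -0.086 to 0.0072 for Cidec over Adipoq and from -0.15 to 0.52 for Plin2 over Cd68. No label names a pairing, so the numbers were not taken as pairs. Deviations of same-numbered libraries correlated at -0.130. With 2 shared numbers both pairs give this same value, so it cannot decide whether the libraries are paired. The block changed no call among the 9 genes, and a crossed pairing, added after seeing the data, called 0 genes. Other scalings, omission of mitochondrial genes and a stricter filter called 0. Counting error is widest for Plin5 (394 to 1073 counts per library) and G0s2 (590 to 1013), the members with the fewest counts. Plin5 had the fewest in heterozygous libraries and G0s2 in homozygous libraries.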
